A study of Rattus norvegicus with 12 samples.

Results

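The genes described here make, conjugate, carry and regulate bile acids in hepatocytes. They are 10 genes chosen by name, and each was represented by 1 probe set with a single gene symbol, so 10 of the 31099 probe sets on the array and 10 of its 14217 named genes were followed. The labels describe male Wistar rats aged 5 weeks, an outbred strain, and liver RNA of 12 of them was hybridised to 1 Affymetrix array each, as biological replicates. The 6 maple syrup rats received a purified AIN93G diet with 20% maple syrup for 11 days, and the 6 sugar mix rats received the same diet with 20% of a syrup of similar sugar composition for as long. All animals had first eaten the plain AIN93G diet for 4 days, and all were fasted for 16 hours before dissection, so every value describes fasted liver. Feeding groups of 7 (maple syrup) and 8 (sugar mix) are given in the labels, and animals without an array were not analysed here.

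Bile acids are formed from cholesterol. The classical pathway opens with Cyp7a1, and Cyp8b1 adds the hydroxyl group that makes cholic acid. The alternative pathway opens with Cyp27a1 and continues with Cyp7b1, and Slc27a5 and Baat then couple the acids to coenzyme A and to taurine or glycine. Slc10a1 brings bile acids from portal blood into the hepatocyte and Abcb11 exports them into bile. The bile acid receptor Nr1h4 (FXR) induces Nr0b2 (SHP), a nuclear receptor without a DNA-binding domain that is known as a repressor of Cyp7a1 and Cyp8b1.

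The upstream sequences of 4 genes are given because the pairs Cyp27a1 with Slc27a5 and Nr0b2 with Cyp8b1 are those on which the correlations below turn. RefSeq promoter entries matched 6 of the 10 genes. Each run is the 250 bases before the start that the RefSeq promoter entry uses, written 5′ to 3′ on the strand of the gene, and capitals mark the nuclear receptor half-site AGGTCA on either strand and the TATA box TATAAA on the sense strand.
Cyp27a1, GRCr8 chr9:83713282-83713531, plus strand: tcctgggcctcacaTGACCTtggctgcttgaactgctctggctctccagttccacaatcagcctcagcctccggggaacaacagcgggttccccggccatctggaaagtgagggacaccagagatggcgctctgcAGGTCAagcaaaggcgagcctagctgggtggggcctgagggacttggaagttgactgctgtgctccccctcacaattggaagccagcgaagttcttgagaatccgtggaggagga
Slc27a5, GRCr8 chr1:82699336-82699585, minus strand: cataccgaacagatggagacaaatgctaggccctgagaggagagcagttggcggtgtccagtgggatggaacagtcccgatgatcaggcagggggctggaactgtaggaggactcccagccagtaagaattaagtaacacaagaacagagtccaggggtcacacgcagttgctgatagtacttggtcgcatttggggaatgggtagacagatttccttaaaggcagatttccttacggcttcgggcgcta
Nr0b2, GRCr8 chr5:151062910-151063159, plus strand: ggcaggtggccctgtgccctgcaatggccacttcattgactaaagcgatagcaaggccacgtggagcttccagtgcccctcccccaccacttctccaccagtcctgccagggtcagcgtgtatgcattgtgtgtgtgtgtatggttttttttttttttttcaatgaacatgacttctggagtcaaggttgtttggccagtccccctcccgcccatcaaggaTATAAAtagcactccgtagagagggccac
Cyp8b1, GRCr8 chr8:130457593-130457842, minus strand: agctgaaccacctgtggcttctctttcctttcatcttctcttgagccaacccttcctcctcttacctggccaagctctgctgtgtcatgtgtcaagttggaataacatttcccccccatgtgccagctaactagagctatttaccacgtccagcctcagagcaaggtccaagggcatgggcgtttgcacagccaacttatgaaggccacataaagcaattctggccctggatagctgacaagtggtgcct
For Cyp27a1 the start of the promoter entry lies inside the span that RefSeq annotates for the gene, and so does the run shown; the other 3 runs end where the annotated gene begins. The 2 half-sites of Cyp27a1 begin 236 and 115 bases before the start of its entry. The half-site was present in 14.1% of all 33469 promoters of this length and in the promoters of Cyp27a1 and Slc10a1 among the 6. The first Cyp27a1 site is also part of the longer run CAAGGTCA, read on the opposite strand, which 1.33% of promoters hold. The TATAAA of Nr0b2 begins 29 bases before its start, and 8.06% of promoters hold these letters. These matches describe letters in a window, not binding sites.

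Levels are in the authors' deposited score, which resembles a log2 intensity but varies far less between arrays than log2 intensities do. Across the 12 arrays a probe set had a median standard deviation (SD) of 7.13e-06, so no fold change is given. The lowest and highest array medians over the 31042 probe sets that are not controls differed by 0.00017, which is more than the SD of 8 of the 10 genes; Cyp7a1 and Nr0b2 varied by more. With control probe sets included the gap was 0.000132, more than the SD of 7 of them. Values in single livers are therefore stated as deviations from the gene's mean over the 12 livers, in units of its SD. Differences between diets are given as Hedges' g, the mean with maple syrup minus that with the sugar mix over the pooled SD of the animals, with a 95% interval. The defining markers fit liver tissue: 9 measured hepatocyte markers had mean scores of 11.35 to 15.21. In whole liver, fewer hepatocytes and less RNA per hepatocyte cannot be told apart.

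None of the 10 genes passed the test between the diets. With limma and Benjamini-Hochberg adjustment over 31042 probe sets, 0 of the 10 genes and 0% of all probe sets were called, and the adjusted p of each of the 10 was 0.9998. At an unadjusted p of 0.05, 0 of the 10 were counted, where 4.07% of all probe sets were. The estimates pointed upward with maple syrup in 6 genes and downward in 4, with a median g of 0.34, against 48.6% upward and a median g of -0.02 over all probe sets. The diets overlapped in each of the 10 genes, and 0.106% of all probe sets showed no overlap. Each 95% interval included 0, where 4.06% of all probe sets had an interval without 0, and together they ran from -2.17 to 2.02, so differences of 2 SD were inside the interval for Cyp8b1 and Nr1h4.

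**Figure D1:**
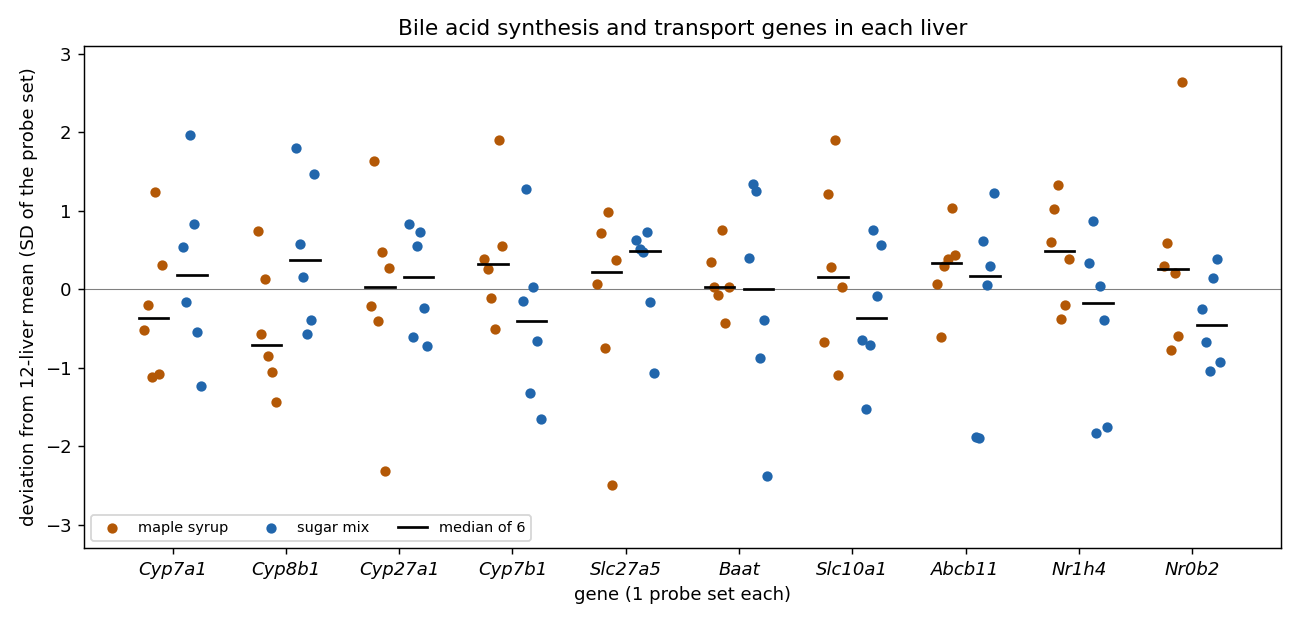
Deviation of each of the 12 livers from the gene's mean, in SD of the probe set, for the 10 genes; points are single rats, with maple syrup on the left and sugar mix on the right, and bars are medians of 6. The diets overlap in every gene, and single livers lie far out for Nr0b2 (2.63 in maple syrup replicate 6), Slc27a5 (-2.50 in maple syrup replicate 5) and Baat (-2.38 in sugar mix replicate 6).

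Among the enzymes that start and shape synthesis, Cyp8b1 had the largest estimate of the 10 genes and stood lower with maple syrup. Cyp8b1 had a mean score of 14.01. Its lowest, median and highest livers were at -1.43, -0.71 and 0.74 SD with maple syrup, against -0.56, 0.37 and 1.80 SD with the sugar mix. The maple syrup rat was higher in 6 of 36 pairings of a rat on one diet with a rat on the other, and the highest 2 livers, replicates 1 and 6, were both from the sugar mix. Its g was -1.05 (95% interval -2.17 to 0.11, n = 6 each), with an exact permutation p of 0.0758 (two-sided, unadjusted) and a limma adjusted p of 0.9998. When each array was centred on its own median the g of Cyp8b1 became 0.22, where the gap between array medians is wider than the SD of this gene. With single arrays left out its g stayed between -1.41 and -0.85, and the lowest limma adjusted p was 0.979. The unadjusted limma p was 0.0254 without maple syrup replicate 1 and 0.142 without sugar mix replicate 1.

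Cyp7a1, the rate-limiting enzyme of the classical pathway, varied more than 99.3% of all probe sets. Its mean score was 6.362 ± 0.00308 with maple syrup and 6.364 ± 0.00386 with the sugar mix (SD, n = 6 each). This level was low, as the array medians lay at 7.3644 to 7.3646 and the lowest score of all was 5.565. The variation and correlations of Cyp7a1 are thus those of a probe set with low signal. The lowest, median and highest livers were at -1.12, -0.36 and 1.24 SD with maple syrup, against -1.23, 0.19 and 1.96 SD with the sugar mix. Low and high livers thus occurred under both diets, and the maple syrup rat was higher in 14 of 36 pairs. The g of Cyp7a1 was -0.42 (95% interval -1.47 to 0.65); it was -0.12 without sugar mix replicate 3, -0.25 without maple syrup replicate 3 and -0.26 without maple syrup replicate 5, and -0.74 without either maple syrup replicate 4 or sugar mix replicate 6.

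In the alternative pathway the 2 hydroxylases had estimates of opposite sign. Cyp27a1, the mitochondrial sterol 27-hydroxylase, ranged from -2.31 to 1.64 SD with maple syrup (median 0.03), against -0.72 to 0.83 SD with the sugar mix (median 0.15). Its lowest and its highest liver, replicates 5 and 2, were both from maple syrup, so the sugar mix livers lay inside that range. The g of Cyp27a1 was -0.16 (95% interval -1.20 to 0.89); it became 0.32 without maple syrup replicate 5 and 0.24 with each array centred on its median. Cyp7b1, the oxysterol 7-hydroxylase, had a mean score of 6.450, likewise below the array medians. It ranged from -0.51 to 1.90 SD with maple syrup (median 0.32), against -1.65 to 1.28 SD with the sugar mix (median -0.40). The maple syrup rat was higher in 28 of 36 pairs, and g was 0.81 (95% interval -0.31 to 1.89). Without sugar mix replicate 2 it was 1.36, and with each array centred on its median 0.48. The gap between array medians is wider than the SD of Cyp27a1 and of Cyp7b1, which limits both centred values.

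The estimates of both conjugation enzymes changed sign when a single liver was left out. Slc27a5, the bile acid coenzyme A ligase, ranged from -2.50 to 0.98 SD with maple syrup (median 0.22), against -1.07 to 0.73 SD with the sugar mix (median 0.49). The g of Slc27a5 was -0.33 (95% interval -1.38 to 0.73) and became 0.12 without maple syrup replicate 5, its lowest liver. Baat, which transfers taurine or glycine to the activated acid, ranged from -0.43 to 0.75 SD with maple syrup (median 0.03), against -2.38 to 1.34 SD with the sugar mix (median 0.00). The g of Baat was 0.19 (95% interval -0.86 to 1.24) and became -0.30 without sugar mix replicate 6.

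Both transporters had positive estimates. Slc10a1 (NTCP) ranged from -1.10 to 1.90 SD with maple syrup (median 0.16), against -1.53 to 0.75 SD with the sugar mix (median -0.37), and the maple syrup rat was higher in 23 of 36 pairs (g = 0.51, 95% interval -0.57 to 1.56). The g of Slc10a1 was 0.24 without maple syrup replicate 4, 0.33 without maple syrup replicate 2 and 0.29 without sugar mix replicate 2, and 0.81 without maple syrup replicate 5. Abcb11 (BSEP) ranged from -0.61 to 1.03 SD with maple syrup (median 0.34), against -1.90 to 1.22 SD with the sugar mix (median 0.17). Its 2 lowest livers, sugar mix replicates 1 and 2, stood apart from the other livers of that diet, and its g was 0.49 (95% interval -0.59 to 1.54). Without either of these livers the g of Abcb11 was 0.22, and without sugar mix replicate 6 it was 0.84.

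The receptor and its target gene also had positive estimates that did not pass. Nr1h4 had its lowest, median and highest livers at -0.38, 0.49 and 1.33 SD with maple syrup, against -1.83, -0.18 and 0.87 SD with the sugar mix. The 2 lowest livers, replicates 3 and 6, were from the sugar mix. The maple syrup rat was higher in 28 of 36 pairs, with a g of 0.92 (95% interval -0.22 to 2.02). After quantile normalization the g of Nr1h4 was -0.33, but that method left 7 of the 10 genes constant, beside 1672 of all 31042 probe sets. Nr1h4 was among the 3 with any spread left. Nr0b2 varied more than 99.6% of all probe sets, the most of the 10 genes. Its mean score was 9.218 ± 0.0108 with maple syrup and 9.211 ± 0.00518 with the sugar mix (SD, n = 6 each). Its livers were at -0.77, 0.26 and 2.63 SD (lowest, median, highest) with maple syrup, against -1.05, -0.46 and 0.38 SD with the sugar mix. A single liver, maple syrup replicate 6, was far above the other 11, and the maple syrup rat was higher in 27 of 36 pairs (g = 0.76, 95% interval -0.35 to 1.84).

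**Figure D2:**
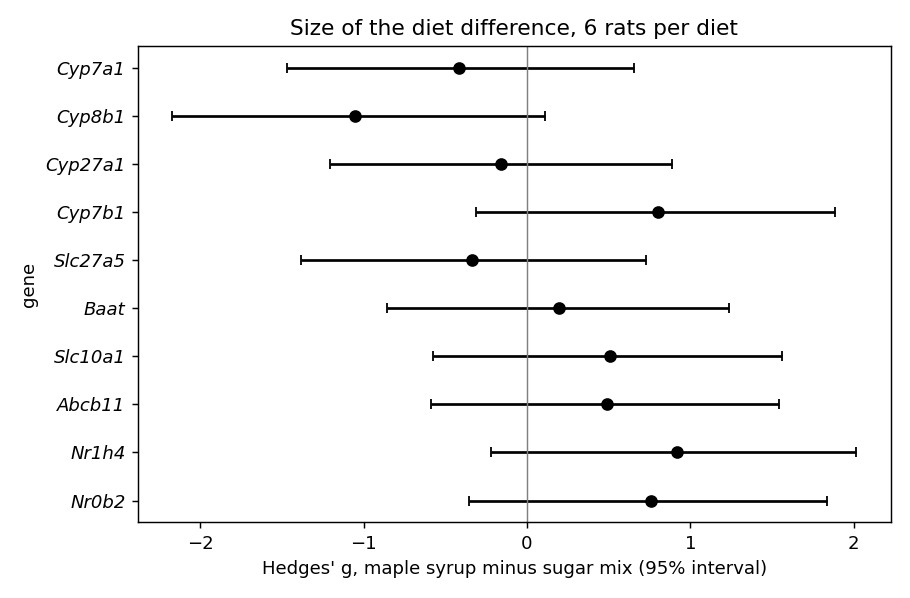
Hedges' g of the 10 genes, maple syrup minus sugar mix, with 95% intervals and 6 rats per diet. The estimates run from -1.05 (Cyp8b1) to 0.92 (Nr1h4), and every interval includes 0.

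The relation of Nr0b2 to the genes it is known to repress was examined over the 12 livers, and neither relation passed after adjustment. Pearson's r and Spearman's rho were computed for all 45 pairs of the 10 genes, with two-sided permutation tests of 100000 resamples adjusted over the 45 pairs. For Nr0b2 with Cyp7a1, r was 0.11 (permutation p = 0.730, adjusted p = 0.840) and rho was 0.10 (permutation p = 0.748, adjusted p = 0.927). Of all other probe sets, 38.4% had an r with Nr0b2 at least this high. Without maple syrup replicate 6 and sugar mix replicate 3, the livers farthest from the median of Nr0b2, r was 0.51. Within the diets r was 0.52 for maple syrup (exact permutation p = 0.290, n = 6) and -0.15 for the sugar mix (exact permutation p = 0.776, n = 6). The difference between these 2 values was not tested. The liver with the highest Cyp7a1, sugar mix replicate 3 at 1.96 SD, had the lowest Nr0b2 (-1.05 SD), but the liver with the lowest Cyp7a1, sugar mix replicate 6 at -1.23 SD, was also low in Nr0b2 (-0.92 SD).

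For Nr0b2 with Cyp8b1 the estimates were negative. The r was -0.56 (permutation p = 0.0537, adjusted p = 0.357) and rho was -0.51 (permutation p = 0.0960, adjusted p = 0.540). An r this low or lower with Nr0b2 was found in 4.28% of all other probe sets. Maple syrup replicate 6 combined the highest Nr0b2 with the lowest Cyp8b1 (2.63 and -1.43 SD), and without this liver r was -0.37 (permutation p = 0.262). Without maple syrup replicate 6 and sugar mix replicate 3 it was -0.41 (permutation p = 0.238). For residuals from the diet means r was -0.44 (permutation p = 0.146). Within the diets r was -0.48 for maple syrup (exact permutation p = 0.353, n = 6) and -0.49 for the sugar mix (exact permutation p = 0.300, n = 6). After each array was centred on its median r was -0.03, where the gap between array medians exceeds the SD of Cyp8b1 but not that of Nr0b2. Leaving out maple syrup replicate 5 gave r = -0.67 (permutation p = 0.0194), and leaving out sugar mix replicate 1 gave r = -0.63 (permutation p = 0.0355). Of the 12 omissions of a single liver only these 2 had a permutation p under 0.05, and all of these p are before adjustment.

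**Figure D3:**
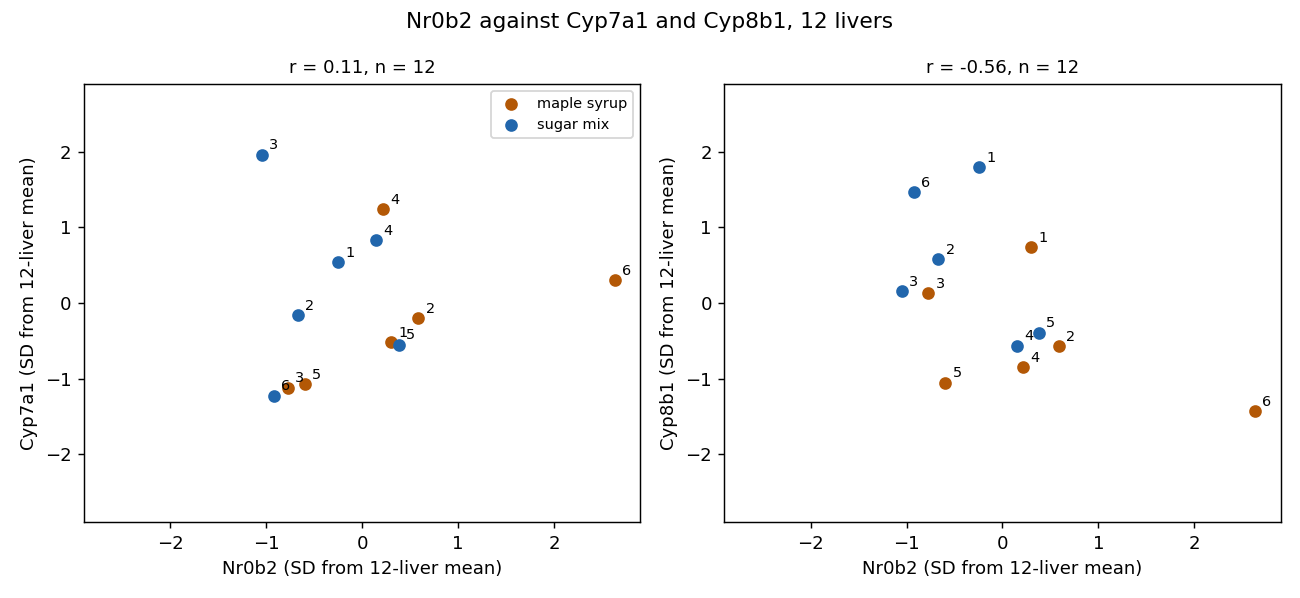
Nr0b2 against Cyp7a1 (left, r = 0.11) and against Cyp8b1 (right, r = -0.56) in the 12 livers, in SD from the mean of each gene; numbers are replicates and colours are diets. Maple syrup replicate 6 lies alone at an Nr0b2 of 2.63 SD, with the lowest Cyp8b1 of the 12 livers.

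Of the 45 pairs, 25 had an r above 0 and 20 below, with a median of 0.03. Before adjustment, 4 pairs had a permutation p under 0.05 by Pearson's r and 6 by Spearman's rho. No such count is given for pairs of other genes, so it is not known whether the members exceed them. Only Cyp27a1 with Slc27a5 passed after adjustment, and it did so by Pearson's r and not by Spearman's rho. Here r was 0.88 (permutation p = 0.00033, adjusted p = 0.0149) and rho was 0.80 (permutation p = 0.00293, adjusted p = 0.0659). Maple syrup replicate 5 was the lowest liver for both genes (-2.31 SD for Cyp27a1 and -2.50 SD for Slc27a5), and without it r was 0.71 (permutation p = 0.0119 before adjustment). Without maple syrup replicates 5 and 2, the livers farthest from the median of Cyp27a1, r was 0.75. Within the diets r was 0.92 for maple syrup (exact permutation p = 0.00972, n = 6) and 0.72 for the sugar mix (exact permutation p = 0.0875, n = 6). Of all other probe sets, 0.0709% had an r with Cyp27a1 at least as high as that of Slc27a5. With each array centred on its median r was 0.79, where the gap between array medians exceeds the SD of both genes. Centring then moves both genes by the same larger array offset, so this value is no separate check of the pair. After quantile normalization both genes were constant and no value could be had.

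Cyp7a1 had its highest correlations with the same 2 genes. With Slc27a5 its r was 0.715 (permutation p = 0.00768, adjusted p = 0.173) and rho was 0.81 (adjusted p = 0.0659), and without sugar mix replicate 3 and maple syrup replicate 4 r was 0.79. In maple syrup rats r was 0.77 and in sugar mix rats it was 0.76, with exact permutation p of 0.0708 and 0.0819 (n = 6 each). With Cyp27a1 the r of Cyp7a1 was 0.60 (permutation p = 0.0365, adjusted p = 0.357), rho was 0.70 (adjusted p = 0.220), and r without the same 2 livers was 0.67. These values did not pass after adjustment. Nr1h4 had an r of 0.32 with Nr0b2, its target (permutation p = 0.308, adjusted p = 0.601), and an r of -0.55 with Abcb11 (permutation p = 0.0551, adjusted p = 0.357). Abcb11 is likewise known as a target that Nr1h4 induces, and neither estimate passed after adjustment. Within the diets the r of Nr1h4 with Abcb11 was -0.62 for maple syrup and -0.87 for the sugar mix. Their exact permutation p were 0.185 and 0.0431 before adjustment (n = 6 each). Without sugar mix replicates 2 and 1, the livers farthest from the median of Abcb11, r was -0.68. With Cyp7b1 the r of Nr1h4 was 0.64 (permutation p = 0.0242, adjusted p = 0.357), which did not pass either. Within the diets the r of Nr1h4 with Cyp7b1 was -0.275 for maple syrup (exact permutation p = 0.646) and 0.94 for the sugar mix (exact permutation p = 0.00556), with n = 6 each. Both p are before adjustment, and the latter is the lowest within-diet p of Pearson's r among the 45 pairs. Cyp7b1 is also a probe set with low signal (mean score 6.450). The difference between the diets was not tested.

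**Figure D4:**
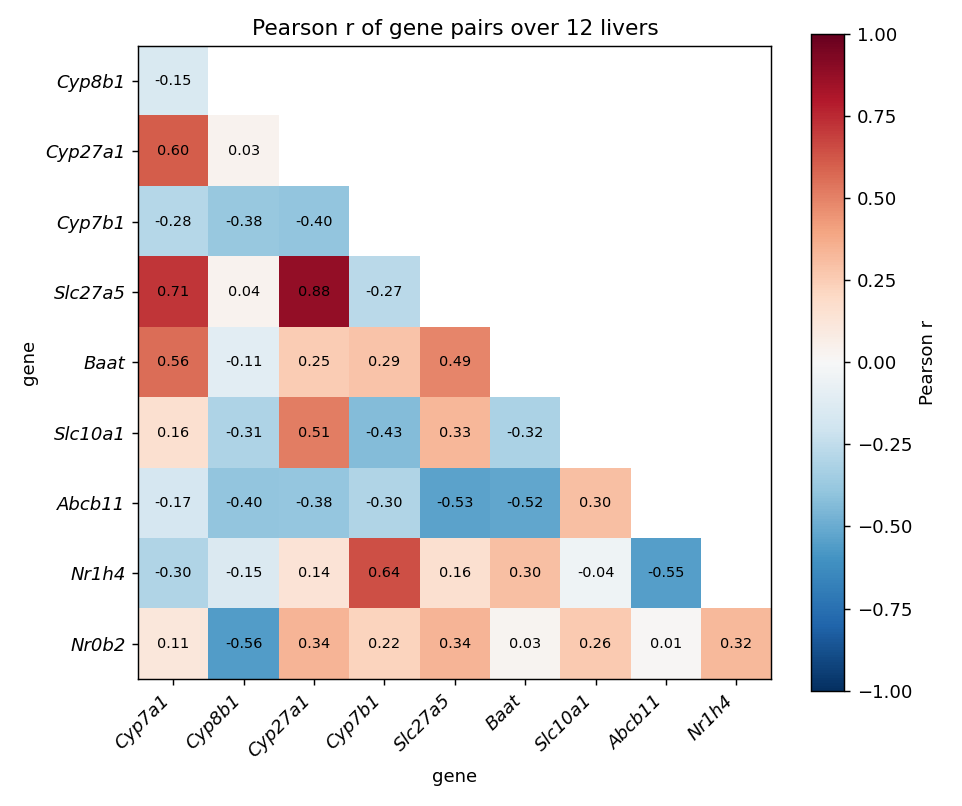
Pearson's r over the 12 livers for each of the 45 pairs of the 10 genes, from blue (negative) to red (positive). The highest value is that of Cyp27a1 with Slc27a5 (0.88), and Nr0b2 with Cyp8b1 (-0.56) is the lowest.

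**Figure D5:**
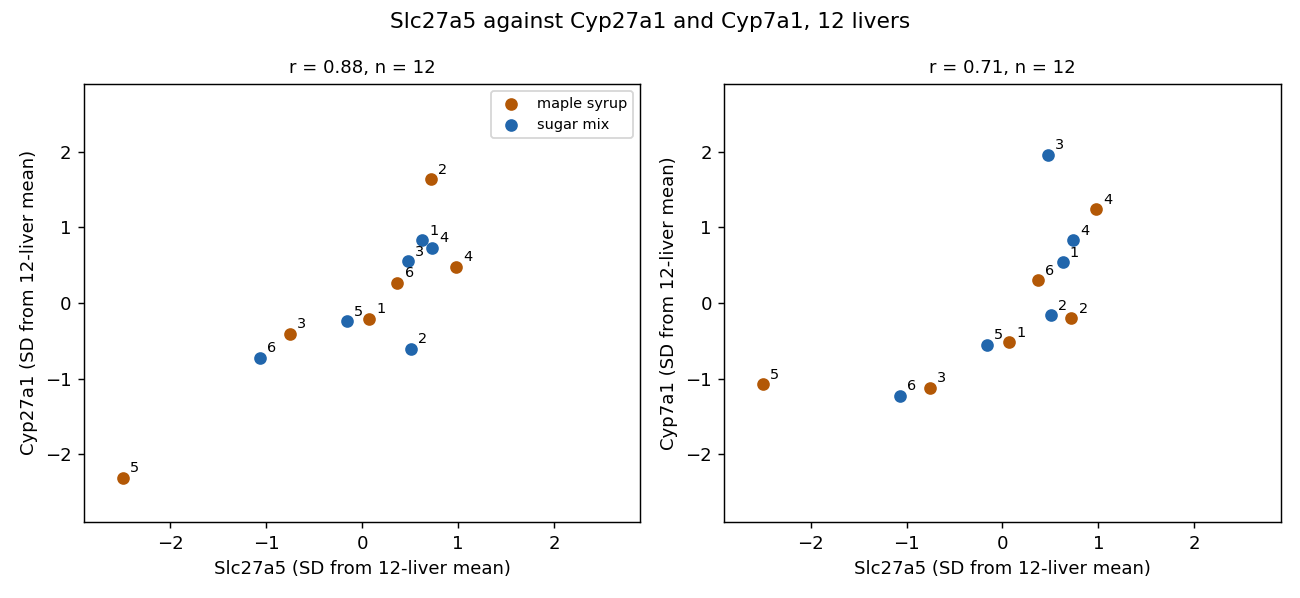
Slc27a5 against Cyp27a1 (left) and against Cyp7a1 (right) in the 12 livers, in SD from the mean of each gene; numbers are replicates and colours are diets. Maple syrup replicate 5 is low for all 3 genes, at -2.50 SD for Slc27a5 and -2.31 SD for Cyp27a1.

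The genes most like Cyp7a1, Cyp8b1 and Nr0b2 over the 12 livers were taken by rank of Pearson's r from 14217 named genes. Because they were picked as the highest of that many values, they are given as a description with no test. For Nr0b2 they were Nfkbia (r = 0.92), an inhibitor of NF-kB, Amotl2 (0.92), a member of the angiomotin family, Cops9 (0.88), a subunit of the COP9 signalosome, Plpp1 (0.88), a lipid phosphatase, and Stoml2 (0.87), a mitochondrial membrane protein. Maple syrup replicate 6 was high in all 5, at 2.87 SD for Nfkbia, 2.44 SD for Stoml2, 2.42 SD for Cops9, 2.23 SD for Amotl2 and 1.95 SD for Plpp1. Without that liver r was 0.73 for Nfkbia, 0.86 for Amotl2, 0.70 for Cops9, 0.84 for Plpp1 and 0.66 for Stoml2.

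For Cyp8b1 the genes ranked first were Rspo3 (r = 0.91), a secreted enhancer of Wnt signalling, Akt1s1 (0.87), a component of the mTORC1 complex, Lgi3 (0.84), Mocos (0.84), which activates the molybdenum cofactor of xanthine dehydrogenase, and Lama1 (0.83), a laminin chain. Without sugar mix replicate 1, the liver farthest from the median of Cyp8b1, these r lay between 0.78 (Lama1) and 0.87 (Rspo3). For Cyp7a1 they were Cd248 (r = 0.88), Tle6 (0.87), Cdc23 (0.85), a subunit of the anaphase-promoting complex, Neurl2 (0.84) and Xrcc3 (0.83), a recombination protein. Without sugar mix replicate 3, the liver with the highest Cyp7a1, they lay between 0.77 (Xrcc3) and 0.86 (Tle6). Several of these genes had mean scores below the array medians of 7.364. They were Cd248 (7.114), Tle6 (7.062) and Xrcc3 (6.664) for Cyp7a1. For Cyp8b1 they were Rspo3 (7.363), Lgi3 (7.114), Mocos (7.192) and Lama1 (6.785). Cdc23 (8.035), Neurl2 (8.055) and Akt1s1 (9.813) lay above the medians.

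Further genes of bile acid handling, from lists written with earlier results of these data known, did not separate the diets either. Of 54 measured genes 0 were called by limma, beside 0% of all 14217 genes, and 28 had a g above 0 and 26 below, where 47.1% of all genes had a g above 0. At an unadjusted p of 0.05, 1 of the 54 was counted, where 4.16% of all genes were. The median g was -0.16 in a synthesis list of 15 other genes, which includes Star and Abcd3 (6 above 0, 9 below). In a transport list of 14 other genes, which includes Ephx1, it was 0.04 (8 above, 6 below). It was 0.11 in 14 regulators (8 above, 6 below) and 0.14 in 8 genes of bile acid detoxification (4 above, 4 below), against -0.04 over all genes. In 3 genes of bile acid uptake and signalling outside hepatocytes it was 0.10 (2 above, 1 below).

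The 4 of these genes with the smallest p were picked by p, so their estimates tend to be too large. Abcc3, which exports conjugates back to blood, had lowest, median and highest livers at -1.81, -0.53 and 0.59 SD with maple syrup, against -0.36, 0.60 and 1.52 SD with the sugar mix (g = -1.26, 95% interval -2.41 to -0.06). It is the 1 gene counted above, and its limma adjusted p was 0.9998. Ephx1, the microsomal epoxide hydrolase, had a g of -1.06 (95% interval -2.18 to 0.10). Cyp3a2, a cytochrome P450 that hydroxylates steroids and drugs, ranged from 0.10 to 0.73 SD with maple syrup, against -2.80 to 0.56 SD with the sugar mix, and was higher in the maple syrup rat in 31 of 36 pairs (g = 0.94, 95% interval -0.20 to 2.04). Hsd17b4, a peroxisomal enzyme of side-chain shortening, had a g of 0.82 (95% interval -0.30 to 1.91).

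Markers of other cells and of the time of day were measured beside these results, and their part in them was not tested. Cholangiocyte markers, which include the bile acid carrier Slc10a2, had 2 of 7 measured members above 0 in g and 5 below, with mean scores of 6.76 to 8.02. Their mean standardised level ran from -0.75 to 0.50 with maple syrup and from -0.85 to 0.72 with the sugar mix. Kupffer cell and macrophage markers had 1 of 7 above 0 and 6 below (median g -0.68), and their mean standardised level ran from -1.43 to 0.76 with maple syrup and from -0.24 to 0.84 with the sugar mix. Hepatocyte markers had 4 of 9 above 0 and 5 below, sinusoidal endothelial markers 4 of 5 above, stellate cell markers 2 of 6 above and erythroid markers 3 of 4 above. Clock genes and their output factors, which matter because Cyp7a1 is known to vary over the day, had 10 of 16 above 0 and 6 below. Their mean standardised level ran from -0.13 to 0.42 with maple syrup and from -0.29 to 0.17 with the sugar mix. The clock genes do not all peak at the same time of day, so this mean can hide a difference in phase. The estimates farthest from 0 were those of Tef (g = 1.16), Hlf (1.01) and Nfil3 (-0.97). At an unadjusted limma p of 0.05, 1 of the 16 was counted, where 4.16% of all genes were. By limma 0 members of these marker lists were called.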

How the data were processed

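Biotin-labelled cRNA from 2 ug of total liver RNA was hybridised to 12 Affymetrix rat arrays, per the labels' protocols. The authors' deposited table holds a score for each of 31099 probe sets, with 0 missing values; how they were summarized and normalized was not given in the sources used here. limma was used on the scores as they stand because it uses each probe set's own spread; its prior degrees of freedom were 0.707. The 57 control probe sets were left out, and 20832 probe sets had 1 gene symbol in the platform annotation, 436 had several, and the other 9831 stay unnamed.

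Diets were compared over 31042 probe sets with limma 3.58.1 in R 4.3.3 (eBayes with an intensity trend, two-sided), with no filter and no further normalization. Hedges' g has a 95% interval from the noncentral t distribution. Correlations and exact permutation tests used Python 3.11.15 and scipy 1.17.1, and figures matplotlib 3.10.9. For genes with several probe sets the one with the highest mean was used. Scripts were tested on simulated data. Genes were named by a rule: all 10 members, the 4 wider genes with the smallest p, and the 5 genes most like Cyp7a1, Cyp8b1 and Nr0b2. The members and lists were chosen with earlier results of these data known. Alternatives were other normalizations, variance models and probe set rules, a filter on the lowest 30% of scores, the replicate number as a block and each array left out. The filter on low scores removed Cyp7a1 and Cyp7b1. The number of arrays limits the precision.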

Additional observations from a re-analysis of the deposited data

How the results depend on the processing

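Between the diets 0 probe sets and 0 of the 54 wider genes were called under the alternatives run, except that 32 probe sets, none of them a member, were called after each probe set was divided by its own SD, which by construction gives all probe sets 1 variance. Quantile normalization left 7 of the 10 members constant, beside 1672 of all 31042 probe sets, and gave no median g. The g of Nr1h4 became -0.33. Under median centring the g of Cyp8b1 became 0.22 and that of Cyp27a1 0.24; the array medians differ by more than these genes vary. With single arrays left out, the g of Cyp27a1 ran from -0.53 to 0.32, of Slc27a5 from -0.58 to 0.12 and of Baat from -0.30 to 0.48. The other 7 kept their sign, at -0.74 to -0.12 (Cyp7a1), -1.41 to -0.85 (Cyp8b1), 0.58 to 1.36 (Cyp7b1), 0.24 to 0.81 (Slc10a1), 0.22 to 0.84 (Abcb11), 0.53 to 1.02 (Nr0b2) and 0.71 to 1.28 (Nr1h4), and the median g of the members from 0.15 to 0.43. The r of Nr0b2 with Cyp8b1 ran from -0.67 to -0.37, and that of Nr0b2 with Cyp7a1 from 0.00 to 0.43. Replicate numbers did not pair the animals: deviations of equal numbers correlated at -0.04 to 0.13, and 0 of 12 arrays correlated best with their own number. With the replicate number as a block, limma called 0 probe sets. The r of differences within equal numbers was -0.88 for Nr0b2 with Cyp8b1 (exact permutation p = 0.0431), 0.56 for Nr0b2 with Cyp7a1 (exact permutation p = 0.253) and 0.78 for Cyp27a1 with Slc27a5 (exact permutation p = 0.0694, an alternative chosen after seeing the data). As the numbers did not pair the animals, these r rest on an arbitrary matching, and their p are before adjustment. Each member had 1 probe set, so the alternatives that combine or exchange a member's probe sets were not run.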
